A study of Mus musculus with 4 samples.

Results

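The cells described here are the decorin and lumican-rich, fibroblast-like cells of mouse embryoid bodies. They were chosen by measured values: a cell barcode entered when it had at least 500 detected genes, at most 15% of its unique molecular identifiers (UMIs, each counting 1 captured RNA molecule) from mitochondrially encoded genes, at least 10 UMIs of Dcn and Lum together per 10000 of its UMIs, and at least 5 UMIs of Col1a1, Col1a2 and Col3a1 together. The rule found 2888 such cells among 13808 kept barcodes of 14411 in all. Because Dcn, Lum and the 3 collagen genes chose the cells, their high level here is a description and supports nothing further, and so is every gene's difference from the cells the rule left out.

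Embryoid bodies are aggregates of differentiating embryonic stem cells, here of the R1 mouse line. They were dissociated and their cells profiled in 4 droplet libraries that capture the 3′ ends of transcripts, with 1 library in each group. At day 8 the aggregates had either stayed in normoxia throughout or, after 7.33 days in it, spent their last 16 h in hypoxia. At day 10 they had again either stayed in normoxia or, after 8 days in it, spent their last 48 h in hypoxia. The shorter exposure thus ended at day 8 and the longer one at day 10, so age and length of exposure are not separated between the hypoxic libraries. All 4 share the same stem cell line, and no genotype or drug differed between them; the sources used here do not give the oxygen level. With 1 library in a group there is no spread between replicates to set a difference against, so no test was made, and every interval below covers counting error alone.

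Fibroblasts build the extracellular matrix: they secrete fibrillar collagens, whose chains are hydroxylated and crosslinked by dedicated enzymes, and small leucine-rich proteoglycans such as decorin (Dcn) and lumican (Lum), which bind collagen fibrils and regulate their width and spacing. Under low oxygen the prolyl hydroxylases that mark hypoxia-inducible factor (HIF) for destruction lose activity, and HIF then switches on genes of glycolysis, glucose uptake and angiogenesis. Several collagen-modifying hydroxylases and the crosslinking enzyme lysyl oxidase are known HIF targets, which ties matrix assembly to oxygen.

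The share of decorin and lumican-rich cells differed between the libraries. At day 8 they made up 753 of 3168 kept barcodes in normoxia, 23.8% (95% Clopper-Pearson interval 22.3% to 25.3%), and 666 of 3345 after 16 h of hypoxia, 19.9% (18.6% to 21.3%). At day 10 they made up 1286 of 2679 in normoxia, 48.0% (46.1% to 49.9%), and 183 of 4616 after 48 h of hypoxia, 3.96% (3.42% to 4.57%). The normoxic library of day 10 thus held the highest share and the hypoxic library of the same day the lowest, and the 4 intervals did not overlap. With every barcode thinned to 5000 UMIs before the rule was applied, which left out 70, 166, 162 and 619 shallower barcodes, the shares were 27.4%, 24.7%, 51.5% and 5.55% in the same order of groups.

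The threshold lies within a continuous distribution. Among all cells with at least 5 UMIs of the 3 collagen genes, the median of Dcn and Lum together was 5.04 per 10000 UMIs in normoxia and 4.35 in hypoxia at day 8, and 10.9 and 1.07 at day 10. Just inside the threshold, from 10 to 11 per 10000, lay 84 and 82 cells of the normoxic and hypoxic libraries of day 8 and 97 and 36 of those of day 10. Just outside, from 9 to 10, lay 115, 98, 74 and 38. A lower share can therefore mean fewer cells of this kind or less Dcn and Lum RNA in each, and the rule cannot tell these apart. The collagen minimum mattered little: of the 414, 423, 297 and 921 kept barcodes under it, only 1, 0, 6 and 10 reached the Dcn and Lum threshold.

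**Figure D1:**
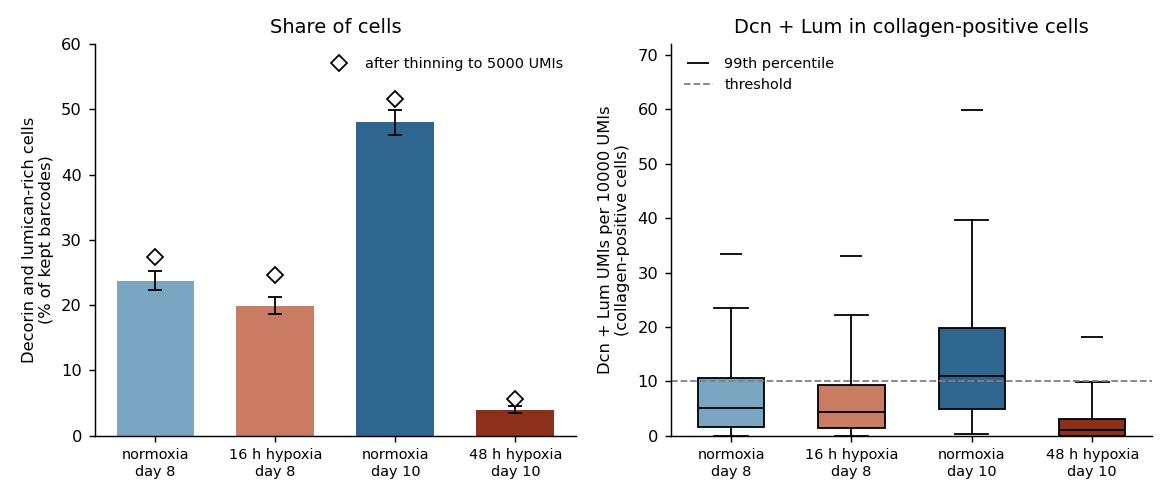
Left, bars give the percentage of kept barcodes that were decorin and lumican-rich in each of the 4 libraries, with 95% Clopper-Pearson intervals, and diamonds the percentage after thinning every barcode to 5000 UMIs. Right, boxes give the quartiles of Dcn and Lum UMIs per 10000 in collagen-positive cells, whiskers the 5th and 95th percentiles, dashes the 99th, and the dashed line the threshold of 10; the share runs from 3.96% after 48 h of hypoxia to 48.0% in normoxia at day 10.

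Depth was high and differed between libraries. The selected cells held 17964054 and 13777667 UMIs in normoxia and hypoxia at day 8, and 27913052 and 2655895 at day 10, with medians of 21087, 17838, 19419 and 12952 UMIs per cell. The hypoxic library of day 10 stood apart: its 183 selected cells held the fewest UMIs, and of these 29.4% came from ribosomal protein genes, against 17.9% to 21.0% in the other libraries, and 0.848% from mitochondrially encoded genes, against 1.94% to 4.13%. Its part in the results of day 10 was not tested. A gene at 20 CPM in these cells has a counting interval from 8.12% below to 8.65% above its value in the deepest library, and from 25.1% below to 30.8% above in the shallowest. Pairs of libraries shared 1 to 5 barcodes, and none of these was the barcode of a selected cell in both libraries of the pair.

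Dcn and Lum are neighbours, on mouse chromosome 10 at chr10:97479609-97518143 and chr10:97565128-97572703 (mm10, forward strand), 47.0 kb apart. Levels are given as CPM, a gene's UMIs per 1000000 UMIs summed over the cells of a library. In the normoxic and hypoxic libraries of day 8, Dcn stood at 549 CPM (Poisson interval 538 to 560) and 841 (826 to 856), and in those of day 10 at 1225 (1212 to 1238) and 547 (520 to 576). Lum stood at 1196 (1180 to 1212) and 872 (856 to 888) at day 8, and at 934 (923 to 945) and 915 (879 to 952) at day 10. The 2 genes did not run in parallel. Because the rule sets a minimum for their sum, an opposite course of the 2 is partly built in. At day 8 the Dcn UMIs per Lum UMI were 0.459 (0.448 to 0.470) without hypoxia and 0.964 (0.940 to 0.989) with it, against 1.31 (1.29 to 1.33) and 0.598 (0.560 to 0.639) at day 10. Hypoxia thus went with a higher ratio at day 8 and a lower one at day 10, and the other collagen-positive cells, with ratios of 0.822, 1.51, 1.67 and 1.1, had the same order. Per cell, 16.6% and 43.2% of the selected cells had more Dcn than Lum UMIs in normoxia and hypoxia at day 8, and 56.8% and 30.1% at day 10. The selected cells held 51.8%, 50.7%, 80.4% and 19% of all Dcn UMIs of their library.

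The fibroblast label was checked against markers the rule did not use. Of these, Fbln1, an elastic fibre and basement membrane glycoprotein, lay between 130 and 186 CPM in the 4 libraries. Mfap4, a microfibril-associated protein, lay between 75.7 and 173 CPM, and fibrillin 1 (Fbn1) between 53.1 and 133 CPM. The platelet-derived growth factor receptors were lower, Pdgfra at 63.5, 54.9, 41.9 and 19.2 CPM and Pdgfrb at 38.7, 37.7, 35.3 and 24.9. Thy1, used as a marker of many adult fibroblasts, was at or below 0.753 CPM in all 4 and at 0 in hypoxia at day 8. The label therefore rests on matrix genes, and these were also found in the other collagen-positive cells. There Fbln1 was at 108, 131, 149 and 68.7 CPM, Mfap4 at 118, 126, 121 and 67.8, and Fbn1 at 102, 80.1, 83.7 and 34.9. Pdgfra was at 50.2, 45.9, 33.6 and 21.7 CPM in those cells, and so higher there than in the selected cells in the hypoxic library of day 10. Pdgfrb was at 40.4, 43.4, 30.1 and 18.2, and so higher there in the libraries of day 8.

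Markers of other cells were near 0 for some lists and not for others. The summed level of 15 macrophage markers was 7.04 to 38.1 CPM, with C1qa at 0 in 3 libraries. Pecam1 and Cdh5, which define endothelium, together reached 5 UMIs in no cell. The endothelial list, led by Tek in all 4 libraries, still summed to 294 and 201 CPM in normoxia and hypoxia at day 8. At day 10 it summed to 250 and 48.9 CPM. The sums were 249, 209, 189 and 55.5 CPM in the other collagen-positive cells. The 10 erythroid markers summed to 270 and 673 CPM in normoxia and hypoxia at day 8 and to 34.9 and 1.13 at day 10, against 997, 973, 61.4 and 12.2 CPM in the other collagen-positive cells. The 12 cardiomyocyte markers summed to 305, 254, 480 and 173 CPM in the same order, with Nkx2-5 at 0 in 3 libraries. In the other collagen-positive cells they summed to 385, 331, 376 and 191 CPM. The neural, pluripotent, glial, megakaryocyte and skeletal muscle lists each summed to 52.7 CPM or less in every library, and 52.0 CPM of the highest of these sums came from Klf2 alone.

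Epithelial and smooth muscle genes were also found. The keratin genes Krt8 and Krt18 led the endoderm list, with Krt8 at 718 and 1164 CPM without and with hypoxia at day 8 and at 206 and 334 CPM at day 10, while Epcam did not exceed 2.17 CPM. The 16 endoderm markers summed to 1141, 1993, 433 and 1031 CPM, with 11 of them at 0 in the hypoxic library of day 10, against 1435, 1813, 342 and 949 CPM in the other collagen-positive cells. Krt19, a keratin of mesothelium and other epithelia, was at 81.2 and 315 CPM at day 8 and at 79.9 and 412 CPM at day 10, and so was higher in both hypoxic libraries, while the mesothelial marker Msln stayed at or below 0.753 CPM. The 9 mesothelial markers summed to 299, 630, 458 and 483 CPM, against 337, 667, 535 and 434 CPM in the other collagen-positive cells. At least 5 UMIs of Upk3b, Msln and Krt19 together were found in 33.9%, 57.7%, 31.4% and 48.6% of the selected cells, and in 35.7%, 58.1%, 35.1% and 43.5% of the other collagen-positive cells. The 8 smooth muscle markers summed to 2034, 3126, 1454 and 7766 CPM, led by Acta2 and Tagln, against 5361, 7252, 2404 and 8091 CPM in the other collagen-positive cells, and none of them was at 0 in a library. The part of these cell types in the results was not tested.

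Within each library the selected cells were set beside the other collagen-positive cells, which have the same collagen minimum but fall under the Dcn and Lum threshold (2001, 2256, 1096 and 3512 cells). Ratios are log2 of (CPM + 1). Of the 6524 genes averaging 20 CPM or more, 5 reached a 2-fold higher level in all 4 libraries, 0.0766%, and 3 a 2-fold lower one, 0.046%. Beside Dcn and Lum themselves, the higher genes were Rgs6, Angptl6 and Tdo2, and the lower ones were Gas6, Cemip and Cadm1. This is the contrast that chose the cells, so the counts are a description. Few genes stood apart by this much.

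Rgs6, a regulator of G protein signalling, was at 35.5 and 56.4 CPM in the normoxic and hypoxic cells of day 8 and at 89.2 and 13.6 in those of day 10, against 9.04, 14.7, 18.8 and 3.38 CPM in the other collagen-positive cells. Angptl6, which encodes a secreted angiopoietin-like protein, was at 52.3, 44.6, 54.2 and 16.2 CPM against 10.1, 11.4, 19.3 and 4.65. Tdo2, the tryptophan dioxygenase that opens the kynurenine pathway, was at 90.4, 70.8, 13.7 and 2.64 CPM against 29.6, 18.7, 3.86 and 0.649. All 3 were thus higher in the selected cells in each library, while their own levels differed widely between libraries.

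Among the next genes was Foxf1, a forkhead transcription factor of splanchnic mesoderm, at 74.2, 55.7, 42.7 and 18.8 CPM against 29.8, 21.3, 22.3 and 7.21. Its log2 ratios were 1.29, 1.35, 0.91 and 1.27. Dkk2, a secreted modulator of Wnt signalling, had ratios of 0.88 to 1.11, Tnc, the matrix glycoprotein tenascin C, of 0.66 to 0.92, and Ednra, an endothelin receptor, of 0.54 to 1.1. P4ha2, a collagen prolyl hydroxylase subunit, was higher by 0.49 to 0.65. Colec10 and Colec11, collectins chosen here after their values were seen, had ratios of 1.49 to 2.46 and 1.03 to 1.26.

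Lower genes included Gas6, a ligand of the TAM family of receptors, at 27.1, 27.7, 35.9 and 56.5 CPM and with log2 ratios of -1.98 to -1.50. Cemip, a protein of hyaluronan breakdown, had ratios of -2.41 to -1.38, and the adhesion molecule Cadm1 of -1.86 to -1.03. The cardiac and mesodermal transcription factor Gata4 had ratios of -1.13 to -0.86, opposite in sign to Foxf1. Cdkn2a, the locus of 2 cell cycle inhibitors, had ratios of -1.46 to -0.98, and S100a6, a calcium-binding protein, of -1.91 to -0.78.

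**Figure D2:**
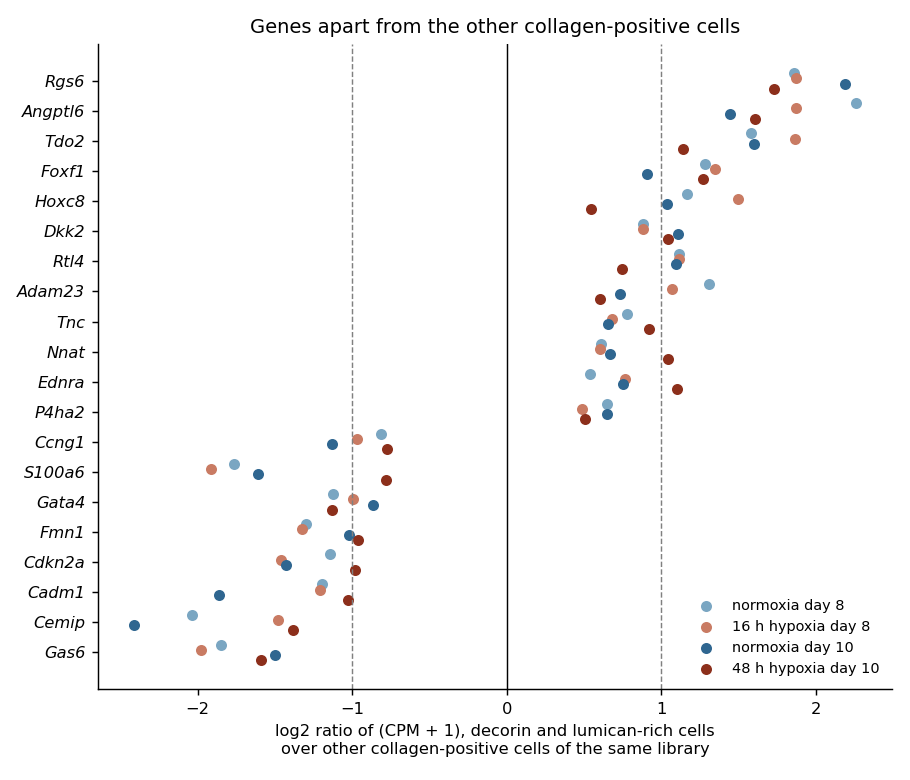
Points give the log2 ratio of (CPM + 1) of the selected cells over the other collagen-positive cells of the same library, 1 point per library, for 20 genes of the naming rule; dashed lines mark 2-fold. Foxf1 lies at 0.91 to 1.35 and Gata4 at -1.13 to -0.86. The rule ranked genes by their smallest ratio over the 4 libraries, so all 4 points of each gene lie on 1 side of 0 by selection.

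By list, the median ratio over the 4 libraries was highest for small leucine-rich proteoglycans (0.45, with Dcn and Lum among its 5 measured genes), collagen chains (0.35) and collagen processing (0.31), and the collagens include the 3 the rule used. It was lowest for p53 targets (-0.75) and contractile genes (-0.42). Of 18 measured p53 targets, 4 were at least 1.5-fold lower in all 4 libraries and none higher; over 10414 genes of at least 5 CPM these shares were 0.739% lower and 0.23% higher. The 4 were Perp, Eda2r, Ccng1 and Plk2, the last of them chosen for its value. Cdkn1a, the cell cycle inhibitor most used as a readout of p53, was at 25.6, 35.9, 71.8 and 215 CPM against 108, 141, 209 and 259 CPM, with ratios of -2.03, -1.94, -1.53 and -0.27, so that the gap was small in the hypoxic library of day 10.

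Hox genes mark position along the body axis and were looked at after Hoxc8 was seen among the higher genes. Hoxc8 stood at 45.3, 33.8, 31.6 and 13.2 CPM against 19.6, 11.3, 14.9 and 8.72. Of 16 Hox genes measured at 5 CPM or more, 6 were higher in the selected cells in all 4 libraries, at any size of ratio and all of them among the 8 Hoxc and Hoxd genes, and 2 were lower in all 4. By the same measure 13% of 10341 genes were higher in all 4 and 21.6% lower. None of the 6 Hoxb genes was higher in all 4. No interval entered these counts, and some values rest on few UMIs. In the hypoxic library of day 10 Hoxd8 was at 1.88 CPM against 0.870 in the other cells, and Hoxc4 at 2.26 against 1.65.

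Of 18 measured contractile genes 1 was at least 1.5-fold lower in all 4 libraries and none higher, against 0.739% and 0.23% of 10414 genes. Vcl, Cnn2, Flna and Myh10 had the highest ratios of the list. Tagln, Acta2 and Ankrd1 were among those with the lowest. Their gap to the other cells was smaller in the hypoxic library of day 10. Tagln (transgelin) was at 393 and 965 CPM in the normoxic and hypoxic cells of day 8 and at 396 and 3607 in those of day 10, against 1571, 2536, 834 and 3882 CPM in the other collagen-positive cells. Acta2, smooth muscle actin, was at 1567, 2052, 899 and 3618 CPM against 3579, 4451, 1393 and 3821. Ankrd1, a stretch-responsive ankyrin repeat protein, was at 5.96, 4.14, 1.47 and 63.6 CPM against 76.1, 98.5, 26.1 and 99. The log2 ratios of Ankrd1 were -3.47, -4.28 and -3.46 in the first 3 libraries and -0.63 in the fourth. Cells with at least 50 UMIs of Acta2 and Tagln per 10000 made up 4.12%, 12.2%, 3.97% and 49.2% of the selected cells and 22.3%, 29.4%, 9.22% and 44.7% of the others. At a cut of 10 per 10000 the shares were 68.4%, 69.8%, 39.1% and 85.8% of the selected cells. Those of the others were 70.5%, 67.9%, 36.0% and 76.2%. Myh11, a late smooth muscle gene, did not exceed 4.16 CPM in the selected cells.

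Within the selected cells, some levels graded with Dcn and Lum, though not alike in every library. In normoxia at day 10, from cells with 10 to 15 to those with 30 or more Dcn and Lum UMIs per 10000, Col1a2 went from 2277 to 4477 CPM, Postn (periostin) from 427 to 848, and Ogn (osteoglycin) from 78.9 to 114. Over the same cells Mki67, a proliferation marker, went from 129 to 67.6 CPM and Angptl7, a secreted protein, from 110 to 16.0. Acta2 was at 876, 959 and 797 CPM in these 3 bands. Elsewhere Ogn went from 10.3 to 6.90 CPM in normoxia at day 8, and Mki67 was at 93.4, 69.3 and 89.4 CPM in hypoxia at day 8. In normoxia at day 8 Acta2 went from 1741 to 1152 CPM and Tagln from 492 to 241 over these bands. In the hypoxic library of day 10 both ran the other way, Acta2 from 3139 CPM at 10 to 15 to 4859 at 15 to 30 and Tagln from 3399 to 4280; 7 cells with 30 or more were too few for a value there. The bands use the measure that chose the cells, so they are descriptions.

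**Figure D3:**
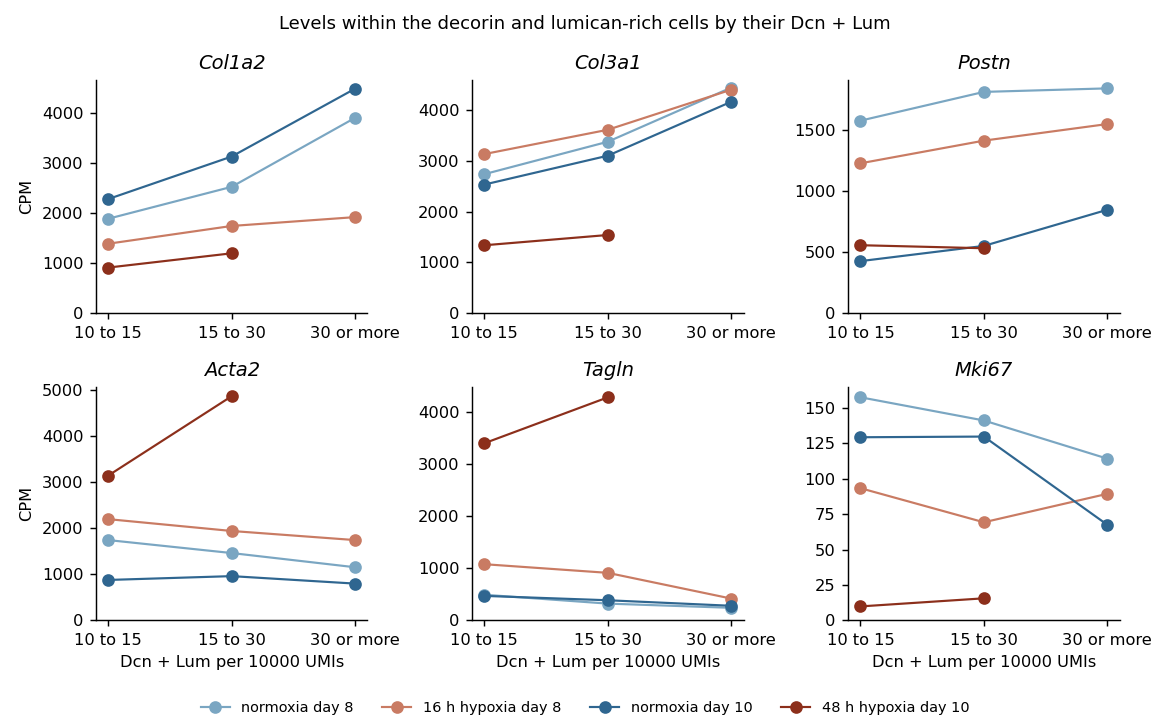
Lines join, for each library, the CPM of summed UMIs of 6 genes in selected cells with 10 to 15, 15 to 30 and 30 or more Dcn and Lum UMIs per 10000; the band with 7 cells is left out. Col1a2 is higher in the higher bands in all 4 libraries, and Acta2 runs from 3139 to 4859 CPM in the hypoxic library of day 10 while it is lower in the top band of the other 3.

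After 16 h of hypoxia at day 8, the selected cells had higher RNA of HIF targets and glycolytic enzymes and lower RNA of mitochondrially encoded and DNA replication genes. In these cells 6478 genes averaged 20 CPM or more. A higher level, by 2-fold or more and with a counting interval without 1, was found for 150 of them, 2.32%, and a lower one for 99, 1.53%. With TMM scaling, which assumes that most genes do not differ, these counts were 196 and 44, and centred on the median gene 166 and 70. With no filter on low genes the balance turned, with 329 higher and 601 lower. The glucose transporter Slc2a3 went from 33.0 to 288 CPM, the endoplasmic reticulum oxidase Ero1l from 34.0 to 289, Ndrg1 from 35.8 to 283 and the glycolytic enzyme Pgk1 from 291 to 1996. Other genes among the 10 highest were the protease inhibitor A2m (7.01 to 75.5 CPM), the mitochondrial adenylate kinase Ak4 (3.90 to 36.7), the phosphofructokinase Pfkp (27.2 to 207) and the histocompatibility gene H2-K1 (10.0 to 78.3).

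The list of HIF targets that are not glycolytic has 51 measured genes, of which 42 reached a 1.5-fold higher level and none a lower one, with a median log2 ratio of 1.90. Over the 10341 genes averaging 5 CPM or more, 5.96% were higher by this measure and 12.6% lower, and the median was -0.11. Vegfa, the main angiogenic factor, went from 21.5 to 77.8 CPM, the glucose transporter Slc2a1 from 295 to 716, and Bnip3, a mitophagy receptor, from 51.5 to 302. Of 19 glycolysis enzymes 16 were higher and 2 lower, with a median of 1.78; the lower ones were Bpgm, bisphosphoglycerate mutase (12.6 to 5.44 CPM), and Ldhb, a lactate dehydrogenase subunit (47.3 to 26.8). Of 13 mitochondrially encoded transcripts 11 were lower, with a median of -1.25, and mt-Nd3 went from 1311 to 165 CPM.

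Within the matrix programme, several modifying enzymes were higher and most chains differed little. Of 20 collagen processing and crosslinking genes 6 were at least 1.5-fold higher and none lower. In normoxia P4ha2 stood at 185 CPM (179 to 192), against 977 (961 to 994) after hypoxia. P4ha1, the alternative catalytic subunit of collagen prolyl hydroxylase, went from 189 to 627 CPM, Plod2, a lysyl hydroxylase, from 194 to 399, and the crosslinking enzyme Lox from 17.3 to 59.4. These 4 genes are also on the HIF target list. Of 18 collagen chains 2 were higher and 1 lower, with a median of 0.15. Col1a1 was at 2992 and 3092 CPM, Col3a1 at 3153 and 3424, and Col1a2 at 2315 and 1578. Col1a1 and Col1a2 encode the chains of 1 protein, type I collagen, and Col1a1 per Col1a2 thus differed between the libraries.

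Promoter sequences are shown for 3 genes picked from those of oxygen sensing and collagen hydroxylation that were at least 2-fold higher in hypoxia at both ages. They are Egln3, a HIF prolyl hydroxylase (7.63 to 60.5 CPM at day 8), P4ha1 and P4ha2. Egln1, another HIF prolyl hydroxylase, also met this (log2 ratios of 2.63 at day 8 and 1.71 at day 10) and is not shown. Each line is the 250 bases before a RefSeq start of the gene on GRCm38.p6, 5′ to 3′ on the gene's strand, the first listed where a gene has several. The windows are chr12:54203875-54204124 (minus strand), chr10:59323046-59323295 (plus) and chr11:54100674-54100923 (plus). The P4ha2 window lies inside the gene as GENCODE annotates it, from chr11:54100095, so it is not upstream of that start. Capitals mark the core of the hypoxia response element, ACGTG, or its reverse complement CACGT.
Egln3: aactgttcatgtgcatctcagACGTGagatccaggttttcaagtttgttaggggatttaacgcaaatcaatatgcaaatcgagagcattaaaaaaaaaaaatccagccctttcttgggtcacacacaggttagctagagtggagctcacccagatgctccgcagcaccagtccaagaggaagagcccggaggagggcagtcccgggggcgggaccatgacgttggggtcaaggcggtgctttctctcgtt
P4ha1: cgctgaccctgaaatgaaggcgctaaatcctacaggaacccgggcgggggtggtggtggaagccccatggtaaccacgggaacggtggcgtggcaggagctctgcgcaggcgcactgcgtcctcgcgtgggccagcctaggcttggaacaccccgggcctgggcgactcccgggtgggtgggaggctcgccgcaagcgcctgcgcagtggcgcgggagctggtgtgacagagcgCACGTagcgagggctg
P4ha2: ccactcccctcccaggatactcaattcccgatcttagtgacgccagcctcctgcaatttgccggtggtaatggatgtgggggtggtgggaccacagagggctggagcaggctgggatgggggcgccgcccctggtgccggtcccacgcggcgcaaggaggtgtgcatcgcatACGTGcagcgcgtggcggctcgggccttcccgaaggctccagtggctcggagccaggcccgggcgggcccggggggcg
The motif was searched on both strands and can overlap itself or other E-box-like motifs. It began 229 bases before the start in Egln3, 16 in P4ha1 and 78 in P4ha2. It was found in 16.6% of all 32851 windows of this length, in at least 1 window of 18.5% of 27025 genes, and in 24 of the 43 HIF targets with a window, 55.8%. A match is a description of these letters and not evidence of binding, and the HIF list was made of known targets.

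The cell cycle lists were lower at day 8. The S phase list had a median of -1.12, with 37 of 42 genes 1.5-fold or more lower and none higher. The G2 and M phase list had a median of -0.49, with 18 of 53 genes lower and 1 higher. Rrm2, a ribonucleotide reductase subunit, went from 47.8 to 7.04 CPM. Mcm6 and Mcm5, subunits of the replicative helicase, went from 67.0 to 19.6 and from 41.6 to 14.5 CPM, and Pcna, the polymerase clamp, from 90.6 to 33.0. At least 5 UMIs of Mki67 and Top2a were found in 36.1% of the selected cells in normoxia and 23.3% in hypoxia. Median depth per cell was also lower in hypoxia (17838 against 21087 UMIs), and its part in this share was not tested.

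The medians of the other lists lay near 0 at day 8, some with members on both sides: 6 of 24 unfolded protein and integrated stress response genes were higher and 4 lower, 5 of 41 growth factors higher and 7 lower, and 1 of 13 complement and lipid-binding proteins higher and 3 lower. The median was 0.01 for small leucine-rich proteoglycans, 0.13 for matricellular proteins, 0.15 for contractile genes, 0.25 for complement and lipid-binding proteins, 0.10 for unfolded protein and integrated stress response genes, 0.04 for immediate early genes and 0.01 for mesenchymal transcription factors. It was -0.28 for p53 targets. It lay from -0.22 to -0.08 for elastic fibre genes, proteases, surface receptors, skeletal and growth factor genes, and each of these 5 medians was above 0 with TMM scaling (0.01 to 0.09). Single genes stood out within them: Igfbp2, an insulin-like growth factor binding protein, went from 257 to 587 CPM, Ntf3, a neurotrophin, from 21.3 to 6.17, and the stress response transcription factor Ddit3 from 29.9 to 67.3.

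**Figure D4:**
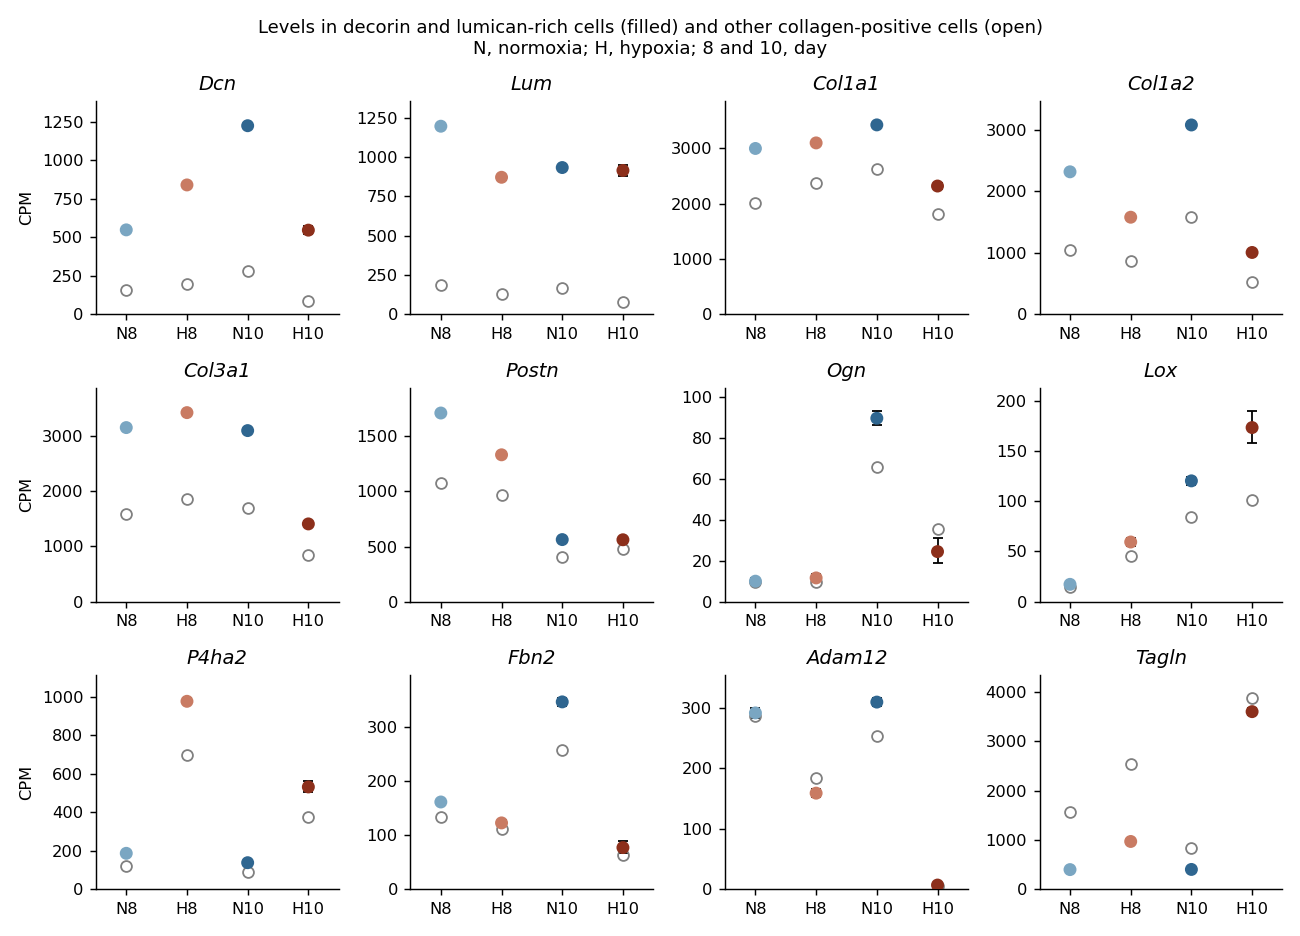
Points give the CPM of 12 genes in the selected cells of each library, with 95% Poisson intervals, and open circles the CPM in the other collagen-positive cells. P4ha2 is at 977 and 531 CPM in the hypoxic libraries against 185 and 137 in normoxia, Adam12 at 6.40 CPM in the hypoxic library of day 10 against 159 to 310 elsewhere, and Tagln at 3607 CPM there.

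After 48 h of hypoxia at day 10, the selected cells had lower RNA of most elastic fibre, transcription factor, cell cycle and mitochondrially encoded genes of the lists, and higher RNA of most HIF targets, glycolysis enzymes and stress response genes. The share of lower genes among collagens and their processing enzymes was near or under that of all genes. Of the same 6478 genes 360 were called higher, 5.56%, and 1653 lower, 25.5%. The scaling bears on this split: with TMM scaling the counts were 835 higher and 985 lower, and centred on the median gene 731 and 1089. The median ratio over all genes was -0.34 by total UMIs and 0.07 with TMM scaling, so a gene within about that distance of 0 has no direction of its own. The values rest on 183 cells from the library described above, with its high ribosomal protein share.

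The matrix genes were split between lower and higher levels. Of 18 collagen chains 9 were at least 1.5-fold lower and 4 higher, with a median of -0.59; over the 10341 genes of at least 5 CPM 46.3% were lower and 11.5% higher, with a median of -0.50. Col1a2 was at 3076 CPM in normoxia and 1006 in hypoxia, Col3a1 at 3099 and 1409, and Col1a1 at 3417 and 2315. Col6a1, Col6a2 and Col6a3, the chains of type VI collagen, were at 154, 70.1 and 138 CPM in normoxia and at 53.1, 11.7 and 41.4 in hypoxia. Col8a1 ran the other way, from 1.86 CPM (1.39 to 2.44) to 23.0 (17.6 to 29.5), and Col12a1 from 47.0 to 74.6. The other 2 higher chains, Col4a1 (86.5 to 224 CPM) and Col4a2 (63 to 140), belong to the basement membrane collagen and are named for their values.

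Of 13 elastic fibre genes 10 were lower, 76.9%, and none higher, with a median of -1.18 (-0.79 with TMM scaling). The shares of all genes of at least 5 CPM were 46.3% lower and 11.5% higher. In the other collagen-positive cells 11 of the 13 were lower, with a median of -1.19. Fibrillin 2 (Fbn2) went from 346 CPM (339 to 353) to 76.4 (66.3 to 87.7), Mfap2 from 91.6 to 21.1 and Emilin1 from 77.0 to 11.3. Of 5 small leucine-rich proteoglycans 3 were lower, Dcn, Ogn (89.6 to 24.5 CPM) and Fmod, fibromodulin (58.5 to 7.53), while Bgn, biglycan, was at 18.5 and 13.6. Dcn is one of the genes that chose the cells, and the list's median of -1.16 is its own ratio. Versican (Vcan), a large proteoglycan, went from 186 to 32.4 CPM, whereas the matricellular protein Ccn2 went from 42.3 to 183 and Igfbp7 from 74.7 to 264. Postn was at 563 and 561 CPM. Among the proteases, Adam12 went from 310 CPM (304 to 317) to 6.40 (3.73 to 10.3), Adamts12 from 172 to 20.7, and Htra1, a secreted serine protease, from 9.39 to 56.1.

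Some collagen hydroxylases were higher (P4ha2, P4ha1 and Plod2) and others lower (P3h3 and P4ha3). P4ha2 was at 137 CPM in normoxia and 531 in hypoxia, P4ha1 at 265 and 661, and Plod2 at 166 and 320. Of the 20 processing genes 3 were higher and 6 lower, among them Loxl1 (200 to 56.5 CPM), P3h3 (52.8 to 13.9) and P4ha3 (21.1 to 6.02). The median of the list was -0.24 by total UMIs and 0.16 with TMM scaling, so it has no direction of its own. Lox was at 120 and 173 CPM.

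Of 31 mesenchymal transcription factors 20 were lower, 64.5%, and 2 higher, 6.45%, with a median of -1.45 (-0.93 with TMM scaling). Over all genes of at least 5 CPM 46.3% were lower and 11.5% higher, with a median of -0.50. In the other collagen-positive cells 21 of the 31 were lower and 3 higher, with a median of -1.19. Nfib, a nuclear factor I protein, went from 389 to 46.7 CPM, Meis1, a homeobox cofactor, from 101 to 15.4, and Wt1, of mesothelium and its descendants, from 126 to 36.9. Tcf21, a factor of visceral and cardiac fibroblasts, had 434 UMIs (15.5 CPM) in normoxia and 2 in hypoxia (0.753 CPM). Its log2 ratio of (CPM + 1) was -3.24, and the counting interval of its UMI ratio, without the added 1, ran from -7.42 to -2.51. The higher ones were Klf4 (12.3 to 53.8 CPM) and Snai1 (7.63 to 26.4), a zinc finger repressor of epithelial genes. Foxf1 went from 42.7 to 18.8 CPM and Gata4 from 68.5 to 29.7.

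Of 41 growth factors and secreted signals 24 were lower, 58.5%, and 8 higher, 19.5%, with a median of -0.81. Over all genes of at least 5 CPM these shares were 46.3% and 11.5%, with a median of -0.50. Sfrp1, a Wnt antagonist, went from 263 to 33.1 CPM, and Angpt1, a ligand of the endothelial receptor Tek, from 304 to 35.0. Wnt5b had 1538 UMIs in normoxia and 2 in hypoxia. Its log2 ratio of (CPM + 1) was -5.0, and the counting interval of its UMI ratio, without the added 1, ran from -9.24 to -4.34. Vegfa went from 35.4 to 146 CPM and Nrg1, a ligand of ErbB receptors, from 13.3 to 81.7. Bdnf, a neurotrophin outside the list, went from 10.7 CPM (9.50 to 12) to 94.5 (83.2 to 107). Of 14 surface proteins and receptors 6 were lower, 42.9%, and 1 higher, 7.14%, so the lower share was near that of all genes. Their median was -0.51 by total UMIs and -0.10 with TMM scaling, so the list has no direction of its own. Tgfbr3 was at 204 and 58.4 CPM and Bmpr1a at 147 and 287.

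Among HIF targets that are not glycolytic 40 of 51 were higher and 5 lower at day 10, with a median of 1.31. Among glycolysis enzymes 11 of 19 were higher and 3 lower, with a median of 0.95. For all genes of at least 5 CPM the shares were 11.5% higher and 46.3% lower. Egln3 went from 12.9 CPM (11.6 to 14.3) to 85.5 (74.7 to 97.3), and Slc2a1 from 187 to 1156. Among the lower ones, Ldhb went from 68.8 to 5.27 CPM and the growth factor Tgfb3 from 40.4 to 9.04. All 13 mitochondrially encoded transcripts were lower, with a median of -2.35. In the cell cycle lists 37 of 42 genes of S phase and 44 of 53 of G2 and M phase had a lower level and none a higher one, with medians of -1.82 and -1.51. Mki67 went from 118 to 11.3 CPM, and at least 5 UMIs of Mki67 and Top2a were found in 21.3% of the selected cells in normoxia and 5.46% in hypoxia, with median depths of 19419 and 12952 UMIs.

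Of 24 unfolded protein and integrated stress response genes 14 were higher and 2 lower at day 10. For this and the next lists, the shares of all genes of at least 5 CPM were 11.5% higher and 46.3% lower. The median of the 24 was 1.08, against 0.52 in the other collagen-positive cells of the same libraries, and that difference was not tested. Nupr1, a stress-induced nuclear protein, went from 49.1 to 422 CPM, Ddit3 from 32.7 to 146, Trib3, a pseudokinase downstream of ATF4, from 0.645 to 18.4, and asparagine synthetase (Asns) from 6.48 to 36.1. Of 17 p53 targets 5 were higher and 1 lower, with a median of 0.24, among them Bbc3, a pro-apoptotic protein (8.96 to 62.9 CPM), and Mdm2, which targets p53 for destruction (55 to 135). Of 17 contractile genes 6 were higher and 5 lower, with a median of 0.32, and Tagln, Acta2, Ankrd1 and Actg2 (99.6 to 438 CPM) were higher. Immediate early genes were split, 6 of 18 higher and 5 lower, with Dusp1, a MAP kinase phosphatase, at 43.5 and 221 CPM and Egr1 at 912 and 232. Complement and lipid-binding proteins had a median of -0.32 by total UMIs and 0.08 with TMM scaling, and the 6 skeletal and tendon genes of -0.66, with Sox6 at 375 and 25.2 CPM.

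The genes lowest at day 10 were read in few UMIs. The intervals in brackets are of the UMI ratio, without the 1 CPM that the log2 ratios add, which draws ratios of such low values towards 0. Rbfox1, an RNA-binding splicing regulator, had 4862 UMIs in normoxia and 3 in hypoxia, a log2 ratio of -6.36 (counting interval -9.55 to -5.72). Negr1, a neuronal adhesion protein, had 2256 and 3 UMIs, a ratio of -5.26 (-8.44 to -4.61). Angptl7 had 2192 and 3, a ratio of -5.22 (-8.40 to -4.57). Tmem132d was at 31.7 CPM in normoxia and at 0 UMIs in hypoxia, at least 28.1-fold lower against a floor of 3 counts over the library's selected cells (1.13 CPM). Hsd11b2, the enzyme that inactivates glucocorticoids, went from 142 to 2.64 CPM, and Rtl4, Nrxn3 and Adcy2 from 161, 167 and 73.5 to 4.14, 4.52 and 1.51. Many of these genes are long: 32.0% of the 1653 lower genes had an annotated span over 100 kb, against 18.0% of all 6478 genes and 8.89% of the higher ones. The sources used here do not say if intronic reads count, and the part of gene length in the lower calls was not tested.

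At the high end of day 10, Slc5a3 went from 13.3 to 147 CPM and Mrps6 from 42.4 to 285; the 2 genes overlap on chromosome 16 on the same strand, so their reads may not be told apart. Tnfrsf12a, the receptor of TWEAK, went from 19.5 CPM (17.9 to 21.2) to 140 (126 to 155), against 37.6 to 103 in the other collagen-positive cells. Pim3, a serine kinase, went from 38.5 to 264 CPM, the histone gene Hist1h4i from 20.6 to 172, and the small nucleolar RNA host genes Snhg12 and Snhg16 from 52.2 to 356 and from 7.70 to 59.1.

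The 2 hypoxia comparisons share no library. Of the genes higher at day 8, 69 were also higher at day 10, 46.0% of the 150 and 19.2% of the 360; of those lower at day 8, 69 were also lower at day 10, 69.7% of the 99 and 4.17% of the 1653. Over all 6478 genes 5.56% were higher and 25.5% lower at day 10. Of the 150 genes called higher at day 8, 16 were called lower at day 10, 10.7%, and 1 of the 99 went the other way. Slc2a3, Ero1l, Ndrg1, Pfkp, Egln3, Pgk1, P4ha1 and P4ha2 were higher at both ages, and Rrm2, Mcm6, Pclaf and Pcna lower at both. Col1a2 was 0.55 lower on the log2 scale at day 8 and 1.61 lower at day 10.

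**Figure D5:**
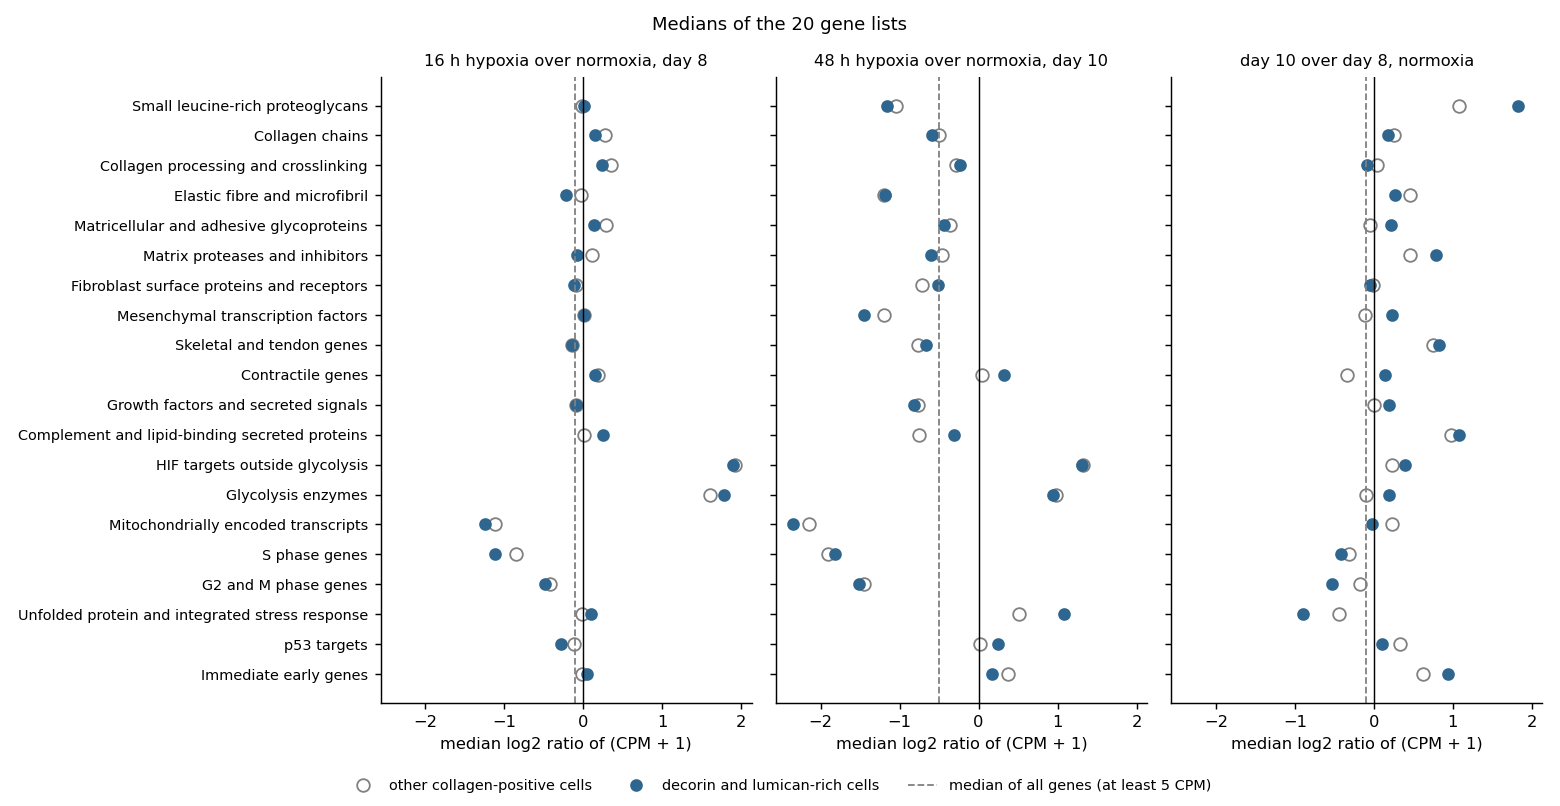
Filled points give the median log2 ratio of (CPM + 1) of each of the 20 gene lists in the selected cells and open circles the same in the other collagen-positive cells, for the 3 comparisons between libraries; the dashed line is the median of all genes of at least 5 CPM. HIF targets lie at 1.90 and 1.31 in the hypoxia comparisons, mesenchymal transcription factors at 0.01 and -1.45, and small leucine-rich proteoglycans at 1.83 for day 10 over day 8.

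The same ratios were taken in the other collagen-positive cells of the same libraries. Of the genes called in the selected cells at day 8, 106 of the 150 higher and 44 of the 99 lower ones also reached 2-fold in the others; at day 10 these were 244 of 360 and 1299 of 1653, and between the normoxic ages 123 of 197 and 62 of 104. Nearly all had the same sign in the others, 149, 99, 357, 1652, 195 and 103 in the same order. Over all genes, called or not, the selected cells' and the others' ratios were within 2-fold of each other for 99.9% of 6478 genes in hypoxia at day 8, for 98.7% at day 10 and for 99.6% between the normoxic ages. They were apart by 2-fold or more with counting intervals that did not overlap for 5, 84 and 28 genes. At day 8 these included Slc2a3, with ratios of 3.09 and 2.07, and Rrm2, with -2.60 and -1.56. At day 10 they included Bdnf (3.03 and 1.89), Tnfrsf12a (2.78 and 1.43), Nrg1 (2.53 and 0.93), Cdkn1a (1.57 and 0.31), Lum (-0.03 and -1.04) and Rbfox1 (-6.36 and -4.09). For Slc2a3, Bdnf, Tnfrsf12a, Nrg1 and Cdkn1a the selected cells had the lower level in normoxia and the 2 kinds of cell were closer in hypoxia, for example 71.8 and 209 CPM of Cdkn1a in normoxia and 215 and 259 in hypoxia at day 10. Lum was one of the genes that chose the cells.

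Between day 8 and day 10 in normoxia, the selected cells had higher RNA of small leucine-rich proteoglycans, proteases, complement and lipid-binding proteins and immediate early genes, and lower RNA of stress response and mitotic genes. Of 6478 genes 197 were called higher, 3.04%, and 104 lower, 1.61%; with TMM scaling the counts were 252 and 69, and centred on the median gene 245 and 77. Of 5 small leucine-rich proteoglycans 4 were at least 1.5-fold higher, with a median of 1.83, but Dcn, 1 of the 4, and Lum chose the cells, so the independent values are those of Ogn, Fmod and Bgn. Over 10341 genes 8.56% were higher and 10.1% lower. Ogn went from 10.0 CPM (8.61 to 11.6) to 89.6 (86.2 to 93.2), Fmod from 15.8 to 58.5 and Bgn from 3.45 to 18.5, while Lum did not follow (1196 to 934). Lox went from 17.3 to 120 CPM.

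Of 19 proteases and inhibitors 10 were higher and 1 lower, with Serpine2, an inhibitor of serine proteases, at 23.2 and 87.3 CPM, and Mmp23 at 18.9 and 49.0. Of 13 complement and lipid-binding proteins 9 were higher and 2 lower, with a median of 1.08: Clu, clusterin, went from 40.9 to 145 CPM and Mgp, matrix Gla protein, from 1.73 to 28.2. Of 13 elastic fibre genes 5 were higher and none lower, among them Fbn2 (161 to 346 CPM) and Fbln2 (34.2 to 101). Of 18 collagen chains 6 were higher and 3 lower, with Col6a1 at 54.6 and 154 CPM and Col12a1 at 14.4 and 47.0. The medians of collagen processing genes (-0.09), surface receptors (-0.05) and mitochondrially encoded transcripts (-0.02) were above 0 with TMM scaling.

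Of 21 matricellular genes 6 were higher and 1 lower between the ages. The lower one was periostin (Postn), at 1710 CPM at day 8 and 563 at day 10, whereas Igfbp7 went from 8.13 to 74.7 and Thbs1, thrombospondin 1, from 55.8 to 204. Of 31 transcription factors 11 were higher and 5 lower. Wt1 went from 41.8 to 126 CPM, Nfib from 194 to 389 and Nfix from 4.45 to 24.6, while Foxf1 went from 74.2 to 42.7. Of 41 secreted signals 15 were higher and 7 lower, with Bmp5, a ligand of BMP signalling, at 44.1 CPM at day 8 and 6.91 at day 10.

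Stress and division genes were lower at day 10. Of 24 unfolded protein and integrated stress response genes 16 were lower and 2 higher, with a median of -0.89 against -0.45 in the other collagen-positive cells. Asns went from 38 to 6.48 CPM, the serine synthesis enzyme Psat1 from 28.0 to 7.06, and the chaperone cofactor Sdf2l1 from 20.6 to 4.73. The G2 and M phase list had 20 of 53 lower genes and the S phase list 11 of 42, with medians of -0.53 and -0.41. Of 18 immediate early genes 12 were higher and 1 lower, with a median of 0.94, among them Egr1 (418 to 912 CPM), Nr4a1 (34.9 to 152) and Fosb (22.1 to 95.4).

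The genes highest over age included Cdh13, an anchored cadherin (13 to 156 CPM), Angptl7 (6.62 to 78.5), Ppp2r2b (14.5 to 134), Rbfox1 (22.7 to 174) and Brinp1 (23.8 to 159). Of the 197 higher genes 45.2% had a span over 100 kb, against 18.0% of all. Several were among the genes lowest after 48 h of hypoxia, a comparison that uses the same normoxic library of day 10: Rbfox1, Angptl7, Brinp1 and Ppp2r2b stood at 15.5, 2.40, 35.9 and 44.5 CPM in hypoxia at day 8 and at 1.13, 1.13, 5.27 and 7.15 in hypoxia at day 10. The lowest over age included Tdo2 (90.4 to 13.7 CPM), Asns, Greb1, a hormone-responsive gene (38.6 to 7.13), and Tenm2, a teneurin adhesion protein (153 to 32.1). Tdo2 was above its level in the other collagen-positive cells in all 4 libraries, but its own level was highest at day 8.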

How the data were processed

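Gene by barcode matrices of UMI counts, deposited with 1 library per group, were made by the authors with Cell Ranger 7.1.0 on mm10, per the submitters' processing notes. The sources used here do not say if intronic reads count, nor the strand. The 4 matrices hold 32285 genes, of which 32235 matched the GENCODE M21 annotation. Barcodes were kept as the opening states. UMIs were summed over the cells of each library and given as CPM, with exact Poisson intervals. Shares have Clopper-Pearson intervals, both at 95% and for counting error only. Log2 ratios add 1 CPM to each value. A gene was called when this ratio was at least 2-fold and the exact conditional binomial interval of the UMI ratio left out 1, over genes averaging 20 CPM or more. That interval does not include the added 1 CPM, so it is not an interval of the printed log2 ratio, which can lie off its middle or outside it. Lists were counted at 1.5-fold among genes of at least 5 CPM. There was no replicate, so no test and no p-value was computed.

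The members and the 20 gene and 13 marker lists were chosen with earlier results of these data known. Genes were named by rule: leaving out mitochondrial, ribosomal, unnamed, hemoglobin and other cell type genes, the 10 highest and 10 lowest of each comparison between libraries with at least 50 UMIs, the 15 highest and 10 lowest against other collagen-positive cells by their smallest ratio, up to 4 of each list by size, and a fixed set of matrix, receptor and hypoxia genes. Markers are named from their lists. Doublets were not removed, because Scrublet called 5, 1, 9 and 1 barcodes, which is too few to be a working call. The calling step was run on simulated counts that held counting error alone, which the intervals assume. That run cannot speak to spread between cells or libraries. Alternatives covered the member rule, thinning, pseudocount, filter, scaling and averaging over cells. The work used scanpy 1.11.5, matplotlib 3.10.9, scipy 1.17.1 and numpy 2.4.6 under Python 3.11.15, and edgeR 4.0.16 in R 4.3.3 gave the TMM factors only.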

Additional observations from a re-analysis of the deposited data

Results flagged for a closer look

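For 9 named genes the difference between hypoxia and normoxia ran in opposite directions at day 8 and day 10, by at least 1.5-fold and with a counting interval without 1 at each age. With 1 library in a group the difference between the ages was not tested, and the exposures also differed in length. Each value below is the day 10 log2 ratio minus the day 8 one.

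Dcn, one of the 2 proteoglycan genes that chose the cells, had ratios of 0.61 and -1.16, a difference of -1.77. Rgs6, the G protein regulator that was higher in the selected cells than in the other collagen-positive cells, had 0.65 and -2.63, a difference of -3.29. Tafa2, a secreted chemokine-like protein, went from 7.52 to 67.2 CPM at day 8 and from 32.5 to 5.27 CPM at day 10, a difference of -5.42. Cdh13 had a difference of -3.49 and Ppp2r2b one of -5.60. Plcxd3 stood at 7.85 and 14.4 CPM at day 8 and at 56.2 and 2.26 CPM at day 10, a difference of -4.94. Fmn1, an actin nucleator, had a difference of -1.88. These 7 genes were higher in hypoxia at day 8 and lower at day 10. The other 2 ran the other way: Akr1b3, aldose reductase, at 69.6 and 25.3 CPM at day 8 and 41.0 and 69.7 CPM at day 10, differed by 2.17, and Cobll1 by 1.91.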

How the results depend on the processing

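No paired analysis was possible because each group has 1 library. The balance of higher and lower calls turned in some alternatives: for hypoxia at day 8 with no filter (329 and 601, against 150 and 99), and against the other collagen-positive cells (5 and 3) with a Dcn and Lum minimum of 5, without the highest Scrublet scores, with TMM scaling and with no filter. With Dcn and Lum at 5 per 10000 or more, the shares were 43.7% and 40.0% at day 8 and 66.4% and 12% at day 10 (normoxia, then hypoxia), and 3 genes were higher and 7 lower than in the other collagen-positive cells; at 20 or more the shares were 7.26%, 5.77%, 22.1% and 0.563%, with 9 genes each way. Thinned to 5000 UMIs, the shares were 27.4%, 24.7%, 51.5% and 5.55%, with 3 genes higher and 1 lower. Without the barcodes of highest Scrublet score 4 genes were higher and 5 lower than in the other cells, with TMM scaling 5 and 7, and with means over cells none was lower (0).

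With a pseudocount of 10 CPM, 40 genes were lower in hypoxia at day 8 and 57 lower at day 10 than at day 8 in normoxia, and 2 higher and 1 lower than in the other cells. For genes averaging 50 CPM or more, 94 were higher and 32 lower in hypoxia at day 8, 203 and 688 at day 10, and 96 and 39 between the ages, with 2 higher and 1 lower against the other cells. With no filter these counts were 329 and 601, 778 and 4369, 676 and 463, and 10 and 26. TMM scaling gave 44 lower at day 8, 835 higher and 985 lower at day 10, and 69 lower between the ages, and centring on the median gene gave 731 higher and 1089 lower at day 10. The median of all genes was -0.07, -0.34 and -0.09 in these comparisons and 0.10, 0.07 and 0.02 with TMM scaling. Of single gene values 1035 stayed within their counting interval (or, against the other cells, within 0.25 on the log2 scale) and 395 did not; of list medians 695 moved by less than 0.25 and 85 by more. Fewer genes tested account for the lower counts at 50 CPM by construction; for the others the cause was not tested. Depth limits the hypoxic library of day 10 most, whose selected cells hold 2655895 UMIs.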

Other observations

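A few imprinted and nuclear RNAs outside the lists were chosen after their values were seen. Dlk1, a membrane protein of progenitor cells, was at 1405 and 1476 CPM in the selected cells without and with hypoxia at day 8, and at 1799 and 1729 CPM at day 10. The growth factor Igf2 was at 1602, 1582, 1549 and 1815 CPM. H19, the non-coding RNA beside Igf2, lay at 339 to 433 CPM. These 3 differed little between the libraries, while the nuclear RNA Malat1 went from 9967 and 10044 CPM at day 8 to 16112 and 26910 CPM at day 10.

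At day 8, Cthrc1, a secreted protein of collagen-producing cells that was chosen for its value, was lower in hypoxia in the selected cells (83.3 to 57.6 CPM) and higher in the other collagen-positive cells (76.5 to 140 CPM). The globin genes Hbb-y and Hba-x also differed, with Hbb-y at 112 and 354 CPM in the selected cells and 379 and 465 CPM in the others.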
